A study of Mus musculus with 2 samples.

Results

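The nuclear-encoded respiratory chain was followed through 97 protein-coding genes, out of 41592 Ensembl gene IDs in a table of RNA-seq values. They were taken by symbol: Nduf for complex I, Sdh followed by a to d for complex II, Uqcr for complex III, Cox4 to Cox8 for complex IV and Atp5 for complex V, with pseudogene symbols left out. This gave 44 genes of complex I, 8 of complex II, 8 of complex III, 20 of complex IV and 17 of complex V. The symbols also bring in 12 assembly factors (Ndufaf1 to Ndufaf8 and Sdhaf1 to Sdhaf4). Ndufa4 and Ndufa4l2 were placed in complex IV, where the Ndufa4 protein is now assigned, despite their names.

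The samples were a pair of CD4+ T cell populations from spleen and lymph node of C57BL/6 mice aged 6 to 8 weeks. All mice carried Cre under Foxp3 regulatory DNA without CNS1 (an element of that locus) and a Rosa26 YFP reporter, a permanent mark of past Cre activity that daughter cells inherit. The cells of both groups were sorted as YFP-positive, and they differed in whether Thy1.1 was absent or present, with a stated purity typically above 97%. The study is about thymus-derived regulatory T (Treg) cells and precursors of exFoxp3 cells. Since the design text describes both with 1 marker pair, the groups keep the marker names of their titles here. The labels used here state neither which locus carries Thy1.1 nor how many mice were pooled. Each group had 1 library, so replicate error is unknown and no p-value is given. In bulk samples, more transcripts per cell and more cells with the transcript cannot be told apart.

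Counted reads came to 18600581 for the Thy1.1-positive group and 18536339 for the Thy1.1-negative group. The T cell and Treg markers Foxp3, Il2ra, Ctla4, Ikzf2, Cd3e, Cd3d, Cd4 and Trac were all abundant in both, between 98.8 and 1156 FPKM, but several differed between the libraries. Il2ra stood at 205 and 98.8 FPKM, a ratio of 0.482 (0.466 to 0.499), and Foxp3 at 237 and 158 FPKM, a ratio of 0.670 (0.647 to 0.693). Trac had a ratio of 1.38 (1.33 to 1.44) and Cd4 one of 1.44 (1.40 to 1.48). The part of these differences in the respiratory chain values was not tested. FPKM is a gene's reads scaled to its length and to all counted reads of the library. Ratios are Thy1.1-negative over Thy1.1-positive. The bracketed range after a ratio is its 95% counting interval (exact Clopper-Pearson), which covers counting error only and leaves out variation between mice, sorts and libraries. Differences are of log2(FPKM + 1), Thy1.1-negative minus Thy1.1-positive, a scale that understates the change of low genes.

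Oxidative phosphorylation runs through 5 complexes of the inner mitochondrial membrane. Complexes I (NADH dehydrogenase) and II (succinate dehydrogenase) pass electrons to coenzyme Q, complex III passes them to cytochrome c, and complex IV (cytochrome c oxidase) passes them to oxygen. Complexes I, III and IV pump protons, and complex V (ATP synthase) uses the resulting gradient to make ATP. Most subunits are encoded in the nucleus, and a small hydrophobic set, in complexes I, III, IV and V, in the mitochondrial genome. Treg cells are known to rely on mitochondrial respiration more than conventional effector T cells do.

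Transcripts of the structural subunits were slightly higher in the Thy1.1-negative library across all 5 complexes. Of the 97 genes, 91 reached a mean of 1 FPKM and were compared, with median levels of 42.3 FPKM (Thy1.1-positive) and 48.7 FPKM (Thy1.1-negative). Their median difference was 0.16, against 0.03 over all 12820 genes compared, and 75 of the 91 lay above 0, where 55.1% of all genes did. On the log2(FPKM + 1) scale none of the 91 was 2-fold apart, which 3.08% of all genes were, and by the plain FPKM ratio only the low gene Cox4i2 was (ratio 0.443). Set against the median gene, a reference that moves along when a library is rescaled as a whole, 72 of the 91 lay above it, 79.1%. In 50 genes the whole counting interval lay above a ratio of 1 (26.9% of all genes) and in 2, Atp5d and Cox4i2, below it (18.9% of all genes). Set against the median gene in place of 1, 44 intervals lay above (23.5% of all genes) and 3 below (21.8%). Intervals narrow with reads, and the members had a median of 1325 reads against 837 over all genes. Rescaling by the upper quartile of values above 0 moved the median gene by 0.23 and turned 14 of the 16 values below 0, all but those of Atp5s and Cox4i2. Signs below are those of the deposited scale, and the distance of the members' median to the median gene changed little between scales. A sign said to turn is read against 0. On the upper-quartile scale the median gene stood at 0.26, and 75 of the 91 genes lay above it, next to 72 as deposited.

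The shift was small for each gene and shared by many. Only 11 of the 91 genes were higher by 0.322 or more on the log2(FPKM + 1) scale, next to 15.2% of all genes, so larger steps were no more frequent than elsewhere. Lower by that much were 2, Cox4i2 and Atp5s, next to 10.7% of all genes. The members are well expressed and short, with a median gene length of 703 bases against 1619.5 over all genes, and short, well expressed genes at large also had higher differences. Of all protein-coding genes 52.0% lay above the median gene, and of those with a mean of at least 20 FPKM 50.0%. Among the 911 protein-coding genes with a mean of at least 20 FPKM and a length under 1000 bases, the median difference was 0.09 and 59.8% lay above the median gene. The 55 members within those same bounds had a median of 0.18, and 45 of them, 81.8%, lay above the median gene. Within these bounds, counting intervals lay above 1 in 374 of the 911 genes and in 32 of the 55 members. They lay below 1 in 187 of the 911 and in 1 of the 55.

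**Figure D1:**
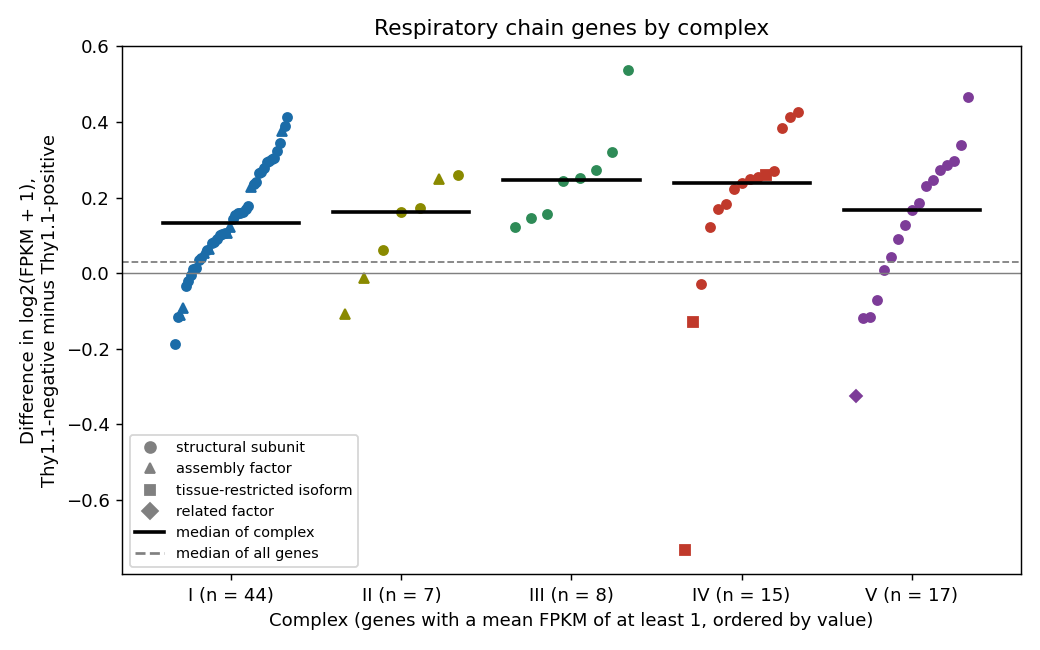
Difference in log2(FPKM + 1), Thy1.1-negative minus Thy1.1-positive (y axis), for the 91 respiratory chain genes compared, grouped by complex (x axis). Each point is 1 gene, black bars are medians (0.13, 0.16, 0.25, 0.24 and 0.17 for I to V) and the dashed line is the median of all genes at 0.03. Most points of every complex lie above the line, and the lowest point is Cox4i2.

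The complexes differed little in their medians, which were 0.13 for complex I, 0.16 for complex II, 0.25 for complex III, 0.24 for complex IV and 0.17 for complex V. All 8 genes of complex III lay above the median gene, as did 12 of 15 genes in complex IV, 35 of 44 in complex I, 5 of 7 in complex II and 12 of 17 in complex V. Without assembly factors, tissue-restricted isoforms and the related factor Atp5s, the medians of I to V were 0.16, 0.17, 0.25, 0.24 and 0.18. This order has no test. It rests on 1 library a side, and the ranges of the complexes overlap.

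Complex I takes electrons from NADH through a chain of flavin and iron-sulfur centres. Its 7 nuclear catalytic core genes had a median difference of 0.10, with 6 above 0. Ndufv2, an iron-sulfur subunit of the NADH-binding module, stood at 35.8 and 47.2 FPKM, a ratio of 1.32 (1.18 to 1.47). Ndufs8 had a ratio of 1.22 (1.08 to 1.38). Of the 7 core intervals 3 lay above 1 (26.9% of all genes) and 4 included it. These 7 genes had a median of 1522 reads against 837 over all genes. Among protein-coding genes with a mean of at least 20 FPKM, 1812 of 4924 had intervals above 1. Ndufs1, the largest subunit, had a ratio of 1.07 (0.987 to 1.17), and Ndufs3 one of 1.07 (0.963 to 1.18). Ndufv1, which binds NADH and flavin, stood at 54.9 and 56.4 FPKM, a ratio of 1.03 (0.938 to 1.13). Ndufs7, which carries the last iron-sulfur centre before coenzyme Q, was the core gene with a ratio below 1, at 0.922 (0.820 to 1.04). On the upper-quartile scale the sign of Ndufs7 turned.

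The 29 accessory genes of complex I surround that core. They had a median difference of 0.16, with 25 above 0. Counting intervals lay above 1 in 13 (26.9% of all genes) and below 1 in none (18.9%). Of the 911 short, well expressed protein-coding genes, 374 had intervals above 1 and 187 below, though not all 29 genes meet those bounds. Ndufb3, a membrane-arm subunit, had the largest difference of the complex, at 18.7 and 25.3 FPKM and a ratio of 1.35 (1.15 to 1.59). Ndufa5 had the smallest, at 36.6 and 32.0 FPKM and a ratio of 0.876 (0.749 to 1.02), a sign that also turned on the upper-quartile scale. Ndufb2 was the least abundant, at 3.78 and 4.06 FPKM, from 88 and 94 reads. Ndufs4, whose loss in mice models Leigh syndrome, had a ratio of 1.29 (1.12 to 1.49), and Ndufa9 one of 1.24 (1.12 to 1.36). These ratios overlap those of the core, so core and accessory genes did not separate.

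Assembly factors help build the complexes and are not part of the finished enzyme. The 8 of complex I were lower in level, from 4.59 to 15.2 FPKM (Thy1.1-positive) and from 5.08 to 16.5 FPKM (Thy1.1-negative), with a median difference of 0.09. Ndufaf5, a hydroxylase of the core subunit Ndufs7, had a ratio of 1.33 (1.09 to 1.61). Ndufaf7, a methyltransferase, had a ratio of 1.21 (1.002 to 1.46), and the other 6 intervals included 1. Intervals thus lay above 1 in 2 of the 8, where 26.9% of all genes had such intervals. Together with the 3 compared of complex II, the assembly factors had a median of 0.07, with 7 of 11 above 0 (55.1% of all genes).

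Complex II oxidises succinate and links the respiratory chain to the tricarboxylic acid (TCA) cycle. Sdha, the flavin subunit, stood at 246 and 257 FPKM, the highest deposited level among the 97 genes outside complex V, and its ratio was 1.04 (0.996 to 1.095). Sdhb, the iron-sulfur subunit, stood at 55.8 and 62.6 FPKM, a ratio of 1.12 (1.04 to 1.21). The membrane anchors Sdhc and Sdhd had ratios of 1.21 (1.08 to 1.35) and 1.13 (1.02 to 1.248). All 4 subunits were thus nominally higher in the Thy1.1-negative library, 3 with intervals above 1 (26.9% of all genes). The smallest ratio was that of the most deeply counted. Of the assembly factors, Sdhaf2, which inserts the flavin into Sdha, had a ratio of 1.21 (1.09 to 1.34). Sdhaf1 had the smallest difference, -0.11, at 3.02 and 2.73 FPKM, and Sdhaf4 a ratio of 0.990 (0.705 to 1.39). Sdhaf3 had a mean FPKM under 1, from 28 and 44 reads, and was not compared.

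The level of Sdha against other genes depends on the length it is divided by. The read recovery described below gave it a gene length of 747 bases. Multiples of that length fit the deposited pair of values as well, so the move of Sdha given next rests on this choice. Divided by its longest principal coding transcript of 2900 bases, Sdha stood at 63.3 and 66.1 FPKM and moved from the third to the 25th level among the 91 genes. In the other direction Ndufb7, given a length of 2529 bases against 623 for that transcript, moved from place 71 to place 19. For 29 of the 91 genes the level moved by over 1.5 times, so orders of level between genes are loose, while ratios between the libraries do not depend on length.

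**Figure D2:**
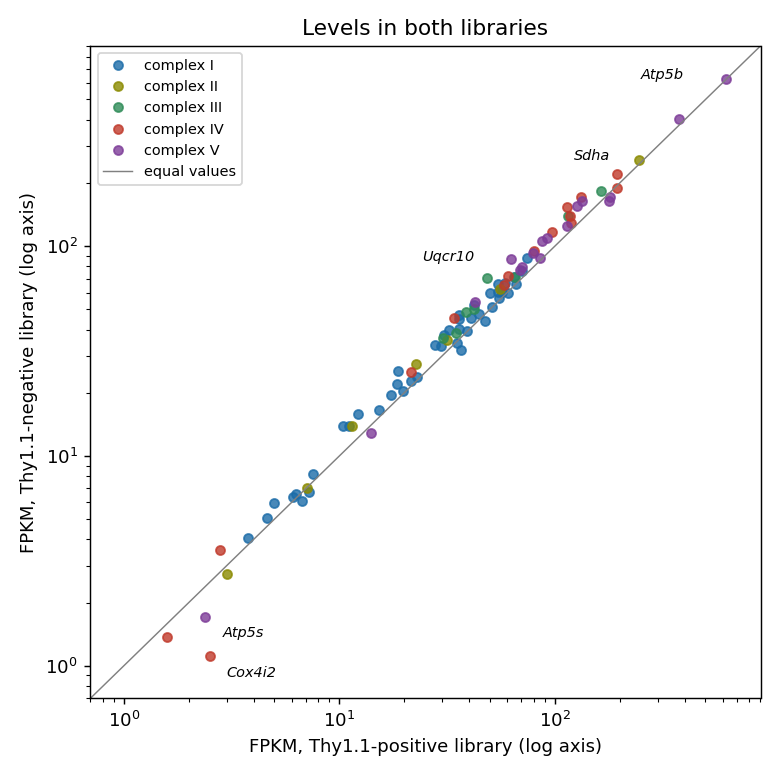
FPKM in the Thy1.1-positive library (x axis, log scale) against FPKM in the Thy1.1-negative library (y axis, log scale) for the same 91 genes, coloured by complex, with the line of equal values. Levels run from about 1 FPKM to 629 FPKM for Atp5b, most points lie just above the line, and Cox4i2 and Atp5s lie below it.

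Complex III moves electrons from coenzyme Q to cytochrome c. Uqcrfs1, the Rieske iron-sulfur protein and its catalytic core gene in this set, stood at 38.8 and 48.7 FPKM, a ratio of 1.26 (1.15 to 1.37). Uqcr10, a small subunit, had the largest difference of all 91 genes, at 48.3 and 70.6 FPKM from 399 and 581 reads, a ratio of 1.46 (1.28 to 1.66). Uqcrh, the hinge protein near cytochrome c1, was the most abundant at 164 and 183 FPKM, a ratio of 1.12 (1.04 to 1.19). Uqcr11 was the least abundant, at 30.3 and 36.3 FPKM, and Uqcrc1, a matrix-facing core protein, had the smallest ratio, 1.09 (1.03 to 1.16). For 7 of the 8 genes the interval lay above 1 (26.9% of all genes), and that of Uqcrb included it at 1.11 (0.960 to 1.28). The cytochrome c1 gene belongs to this complex but not to the symbols searched. Cytochrome c1 (Cyc1) stood at 46.9 and 43.8 FPKM, a ratio of 0.933 (0.854 to 1.02). Cycs, cytochrome c itself, had a ratio of 0.987 (0.900 to 1.08). Neither lay above the median gene, as all 8 Uqcr genes did. On the upper-quartile scale both signs turned, to 0.15 and 0.23, but both stayed below the median gene at 0.26.

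Complex IV hands electrons to oxygen on subunits encoded in mitochondrial DNA, and its nuclear subunits surround these. All 11 broadly expressed nuclear subunits were nominally higher in the Thy1.1-negative library, with a median of 0.25. For 10 of them the interval lay above 1 (26.9% of all genes). Cox8a led, at 114 and 153 FPKM and a ratio of 1.35 (1.247 to 1.45). Cox7a2 and Cox6a1 followed at 1.34 (1.13 to 1.59) and 1.31 (1.22 to 1.40). Cox4i1, a regulatory subunit, stood at 193 and 219.8 FPKM, a ratio of 1.14 (1.07 to 1.205). Ndufa4 had a ratio of 1.18 (1.07 to 1.31). Its difference of 0.239 is itself the median of the 15 complex IV genes compared, which was 0.236 without it. Cox7c had the smallest ratio of these 11, 1.09 (1.003 to 1.18). Cox7a2l, a relative of Cox7a2 that joins complexes III and IV into supercomplexes, stood at 193 and 189.7 FPKM, with the ratio at 0.981 (0.938 to 1.03). The intervals of Cox7a2l and Cox7a2 do not overlap.

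**Figure D3:**
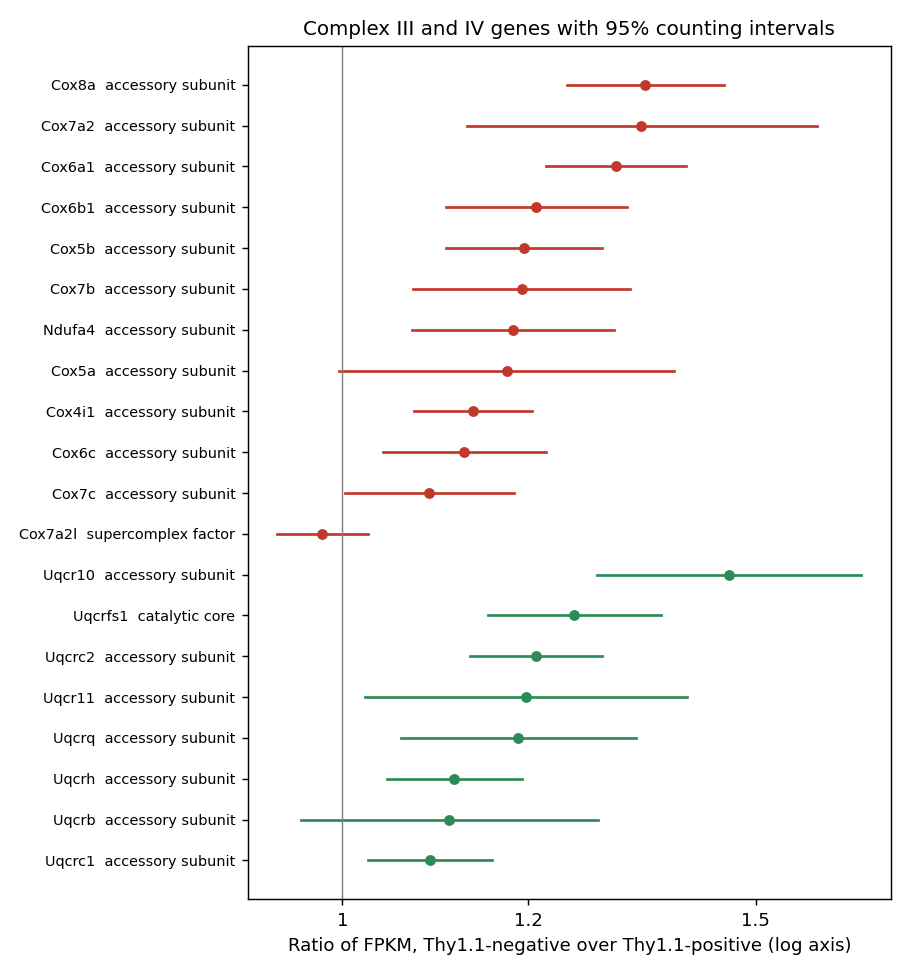
Ratio of FPKM, Thy1.1-negative over Thy1.1-positive (x axis, log scale), for the 8 genes of complex III (green) and the 12 of complex IV above 5 FPKM (red), named on the y axis with their role. Points are ratios and lines 95% counting intervals. All lie right of 1 except Cox7a2l, which turns on the upper-quartile scale, and the intervals of Uqcrb, Cox5a and Cox7a2l include 1.

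Several nuclear subunits of complex IV have isoforms restricted to tissues such as muscle, heart, lung or testis. These were low or absent in both libraries. Cox4i2, the isoform of Cox4i1 best known from lung, stood at 2.50 and 1.11 FPKM from 34 and 15 reads, a ratio of 0.443 (0.224 to 0.835). It was the only gene of the 91 past 1.5-fold, which 9.66% of all genes were, and its difference was opposite to that of Cox4i1. Cox7a1, the muscle isoform of Cox7a2, stood at 2.81 and 3.56 FPKM, a ratio of 1.27 (0.666 to 2.45). Cox6b2, the testis isoform of Cox6b1, stood at 1.59 and 1.37 FPKM, a ratio of 0.860 (0.363 to 2.004). Both intervals are too wide to give a direction. Below a mean of 1 FPKM were Cox8b with 1 and 5 reads, Ndufa4l2 with 1 read in each library, and Cox7b2 and Cox8c with 1 read each, both in the Thy1.1-negative library. Cox6a2, the muscle isoform of Cox6a1, was listed at 0 in both, and Cox6a1 stood at 132 and 172 FPKM.

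Complex V consists of a catalytic F1 head on a central stalk, a peripheral stalk that holds the head still, and a ring of c subunits turned by protons. By deposited FPKM the alpha and beta genes of its head were the most abundant of the 97 genes, and they differed little. Atp5b, the catalytic beta subunit, stood at 625 and 629 FPKM, a ratio of 1.01 (0.979 to 1.03), from 10173 and 10199 reads. Atp5a1, the alpha subunit, stood at 378 and 403 FPKM, a ratio of 1.06 (1.04 to 1.09). In the central stalk, Atp5c1 (gamma) had a ratio of 1.19 (1.11 to 1.27) and Atp5e (epsilon) one of 1.13 (1.04 to 1.22). Atp5d (delta) went the other way, at 178 and 164 FPKM, a ratio of 0.921 (0.877 to 0.968). After rescaling by the upper quartile the sign of Atp5d turned, to 0.14, which stayed below the median gene at 0.26.

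The peripheral stalk genes were higher. Atp5f1, its b subunit, had the largest difference of complex V, at 62.3 and 86.4 FPKM and a ratio of 1.39 (1.30 to 1.49). Atp5h and Atp5j had ratios of 1.23 (1.14 to 1.32) and 1.21 (1.11 to 1.32), while Atp5o, the stalk's cap, had a ratio of 1.03 (0.944 to 1.12). The 4 membrane accessory genes, Atp5j2, Atp5k, Atp5l and Atp5mpl, had ratios between 1.09 and 1.27, all with intervals above 1 (26.9% of all genes). Atp5s, a factor related to ATP synthase that is no subunit of it, had the lowest value of the complex, at 2.39 and 1.71 FPKM, a ratio of 0.715 (0.481 to 1.05). Atpif1, the inhibitor that blocks the enzyme from running backwards, is outside the symbols searched and stood at 8.48 and 10.8 FPKM, a ratio of 1.28 (0.984 to 1.66).

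The 3 c ring genes encode the same mature protein behind different import sequences, and their ratios differed. Atp5g3 stood at 134 and 163 FPKM, a ratio of 1.22 (1.15 to 1.30). Atp5g2 stood at 179.5 and 171 FPKM, a ratio of 0.952 (0.895 to 1.01), and Atp5g1 at 14.0 and 12.9 FPKM, a ratio of 0.918 (0.823 to 1.02). On the upper-quartile scale Atp5g2 turned to 0.18 and Atp5g1 to 0.13, and both stayed below the median gene at 0.26. The interval of Atp5g3 overlaps neither of the others, on any scale. Reads from the parts these genes share may be split between them. By deposited FPKM Atp5g2 was the highest of the 3 and Atp5g1 the lowest in both libraries, and Atp5g3 came close to Atp5g2 in the Thy1.1-negative library.

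**Figure D4:**
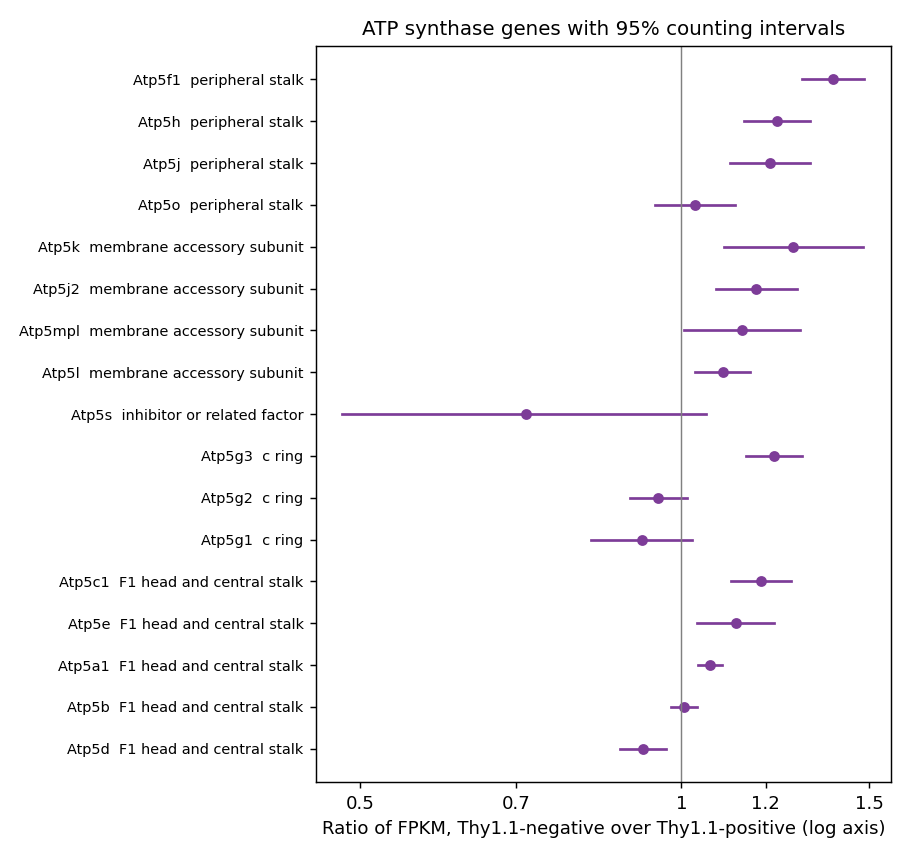
Ratio of FPKM, Thy1.1-negative over Thy1.1-positive (x axis, log scale), for the 17 complex V genes, named on the y axis with their place in the enzyme. Points are ratios and lines 95% counting intervals. Atp5f1 is farthest right at 1.39, Atp5b sits at 1.01, and Atp5d, Atp5g1, Atp5g2 and Atp5s lie left of 1, of which all but Atp5s turn on the upper-quartile scale.

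Promoters of respiratory chain genes are known for sites of NRF-1 and of the Ets factor GABP, both regulators of mitochondrial biogenesis. RefSeq promoter windows (GRCm38.p6, 250 bases before to 50 after the gene start) were matched by symbol for 78 of the 97 genes, 83 windows in all. The NRF-1 letters, GCGCA and GCGC parted by any 1 base, searched on both strands, were in 22 of the 83 windows, 26.5%. They were in 4.60% of all 32851 windows and in 10.3% of those of expressed genes (mean FPKM at least 1). The Ets core CCGGAAG was in 21 windows, 25.3%, against 8.86% and 18.8%. The YY1 core ATGGCGG was in 14 windows, 16.9%, against 4.05% and 8.53%. The Sp1 core GGGCGG was in 45.8%, against 35.7% and 62.5%. By complex, NRF-1 letters were in 10 of 41 windows of complex I, 4 of 7 of complex II, 1 of 5 of complex III, 1 of 14 of complex IV and 6 of 16 of complex V. A match describes letters and shows no binding.

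The c ring promoters are shown because these genes share a protein and differed between libraries. Lower case marks the window and capitals mark an NRF-1 match. The windows are chr11:96075582-96075881, minus strand, for Atp5g1, chr15:102670998-102671297, minus strand, for Atp5g2, and chr2:73911277-73911576, minus strand, for Atp5g3. Atp5g2 has 1 match, which reads the same on both strands, Atp5g3 has 1 and Atp5g1 none. Only exact matches were counted, and a relation of matches to the ratios was not tested.
Atp5g1: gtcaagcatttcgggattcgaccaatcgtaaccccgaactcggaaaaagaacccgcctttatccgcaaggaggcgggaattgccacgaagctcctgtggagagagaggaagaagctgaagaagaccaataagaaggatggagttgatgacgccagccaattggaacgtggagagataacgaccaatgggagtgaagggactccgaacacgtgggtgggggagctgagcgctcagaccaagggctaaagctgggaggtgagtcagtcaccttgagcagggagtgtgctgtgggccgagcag
Atp5g2: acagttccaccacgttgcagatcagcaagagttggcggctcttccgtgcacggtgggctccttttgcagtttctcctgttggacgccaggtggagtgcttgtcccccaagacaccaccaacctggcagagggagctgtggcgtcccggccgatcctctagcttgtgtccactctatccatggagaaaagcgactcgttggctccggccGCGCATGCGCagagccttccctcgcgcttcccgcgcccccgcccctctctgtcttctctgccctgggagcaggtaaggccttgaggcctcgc
Atp5g3: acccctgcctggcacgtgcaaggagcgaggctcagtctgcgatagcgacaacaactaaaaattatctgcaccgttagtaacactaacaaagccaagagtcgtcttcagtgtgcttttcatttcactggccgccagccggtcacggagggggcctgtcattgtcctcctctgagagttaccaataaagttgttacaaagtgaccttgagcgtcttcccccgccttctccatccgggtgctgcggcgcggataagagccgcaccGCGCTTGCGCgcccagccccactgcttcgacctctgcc

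Sdha, nearly level between libraries, has the most NRF-1 letters of the windows shown, with 3 matches in capitals (chr13:74350191-74350490, minus strand). Cox8a, the highest ratio of complex IV, has 2 Ets matches in capitals, which on this strand read as the reverse complement (chr19:7217567-7217866, minus strand). Uqcr10, with the highest ratio of the 91 genes compared, has no exact match to either (chr11:4704295-4704594, minus strand).
Sdha: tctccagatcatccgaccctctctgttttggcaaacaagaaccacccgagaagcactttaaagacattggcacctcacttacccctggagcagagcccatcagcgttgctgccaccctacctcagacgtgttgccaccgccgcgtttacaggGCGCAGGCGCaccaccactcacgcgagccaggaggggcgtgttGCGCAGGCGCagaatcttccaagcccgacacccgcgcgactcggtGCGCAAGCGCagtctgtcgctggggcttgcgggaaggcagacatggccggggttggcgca
Cox8a: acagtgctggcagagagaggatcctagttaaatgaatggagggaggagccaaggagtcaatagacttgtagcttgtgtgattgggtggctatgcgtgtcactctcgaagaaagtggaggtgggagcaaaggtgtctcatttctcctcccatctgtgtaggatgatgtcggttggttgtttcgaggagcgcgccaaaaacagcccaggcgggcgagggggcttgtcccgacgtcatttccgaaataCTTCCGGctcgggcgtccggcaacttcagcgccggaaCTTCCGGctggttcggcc
Uqcr10: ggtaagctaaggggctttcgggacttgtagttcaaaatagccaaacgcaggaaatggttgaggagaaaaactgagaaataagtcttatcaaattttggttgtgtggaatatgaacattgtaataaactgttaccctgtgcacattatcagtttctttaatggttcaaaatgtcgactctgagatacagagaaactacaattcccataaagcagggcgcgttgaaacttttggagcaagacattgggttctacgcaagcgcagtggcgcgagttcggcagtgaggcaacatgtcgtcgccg

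Over the 75 compared genes with a window, the 20 with NRF-1 letters had a median difference of 0.11 and the others one of 0.17. The 20 with the Ets core had a median of 0.17 and the others one of 0.16. With the YY1 core, in 13 genes, and without it the median was 0.16. The 35 with the Sp1 core had a median of 0.11 and the others one of 0.24, the widest gap of the 4 motifs. Sp1 matches were uneven, in 22 of 41 windows of complex I, 6 of 7 of complex II and 0 of 5 of complex III. They were in 6 of 14 windows of complex IV and 4 of 16 of complex V. Structural subunits had them in 26 of 68 windows, and all members in 38 of 83. The Sp1 gap was not separated from complex or role. None of these gaps was tested. Of the factors themselves, Gabpa had a ratio of 1.23 (1.14 to 1.32), Gabpb1, its partner, 0.948 (0.901 to 0.998), and Nrf1 1.07 (0.986 to 1.15).

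Other mitochondrial genes were taken from lists outside the symbol rule. Of 31 further assembly factors compared, 22 lay above 0 (55.1% of all genes), with a median of 0.12. Counting intervals lay above 1 in 8 and below 1 in 3, where 26.9% and 18.9% of all genes had such intervals. Tmem126b (complex I) had the largest difference, at only 2.17 and 3.63 FPKM, a ratio of 1.67 (1.27 to 2.196). Cox11 (copper delivery to complex IV) had the smallest, a ratio of 0.793 (0.645 to 0.975). Of 13 TCA cycle genes, 11 lay above 0 (55.1% of all genes) and 9 above the median gene, with a median of 0.12. Their intervals lay above 1 in 8 (26.9% of all genes) and below 1 in none (18.9%). Idh3a, of the NAD-linked isocitrate dehydrogenase, had the largest ratio at 1.31 (1.17 to 1.47), and Suclg2 the smallest at 0.918 (0.822 to 1.02). Coenzyme Q synthesis had a median of 0.05 over 11 genes, from Coq4 at 0.698 (0.430 to 1.12) to Coq7 at 1.46 (1.02 to 2.10). Both were low, Coq4 with 46 and 32 reads and Coq7 with 55 and 80, and 9 of the 11 intervals included 1.

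Of 7 carriers and porins, 6 had intervals above 1 (26.9% of all genes), with a median of 0.28. Ucp2, an uncoupling protein family carrier, stood at 449.6 and 586 FPKM, a ratio of 1.30 (1.27 to 1.34). Slc25a3, which brings phosphate to the ATP synthase, went the other way at 569 and 522 FPKM, a ratio of 0.917 (0.897 to 0.938). Regulators of mitochondrial biogenesis were mixed, with 7 of 11 above 0 (55.1% of all genes) and a median of 0.06. Esrra, a nuclear receptor acting on respiratory genes, was highest with a ratio of 1.253 (1.096 to 1.43) and Tfb1m lowest with 0.753 (0.513 to 1.098). Pprc1 had a ratio of 0.818 (0.728 to 0.920), and Ppargc1a, the best-known coactivator of the pathway, was under 1 FPKM in both libraries.

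The partner subunits encoded in mitochondrial DNA went the other way on the deposited scale. Of 12 compared, 10 lay below 0 and the median was -0.24. Intervals lay below 1 in 8 (18.9% of all genes) and above 1 in 1 (26.9%). The list had a median of 24481 reads against 837 over all genes, so small differences pass 1 more easily here. mt-Nd5 of complex I stood at 1133 and 921 FPKM, a ratio of 0.813 (0.801 to 0.825), and mt-Cytb of complex III had a ratio of 0.898 (0.887 to 0.909). mt-Co1 of complex IV, the interval above 1, stood at 4472 and 4523 FPKM, a ratio of 1.01 (1.004 to 1.02). mt-Co2, mt-Co3, mt-Atp6, mt-Nd3 and mt-Nd4l were all under 6 FPKM, far below mt-Co1 of the same genome, and how reads of this genome were counted is uncertain. On the upper-quartile scale 6 of the 12 lay below 0 and the median was 0.02, against 0.26 for the median gene, with the signs of mt-Nd6, mt-Cytb, mt-Nd1 and mt-Nd4 turned. Of the other list genes named here, Suclg2, Slc25a3, Gabpb1 and Tk1 also turned on that scale.

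**Figure D5:**
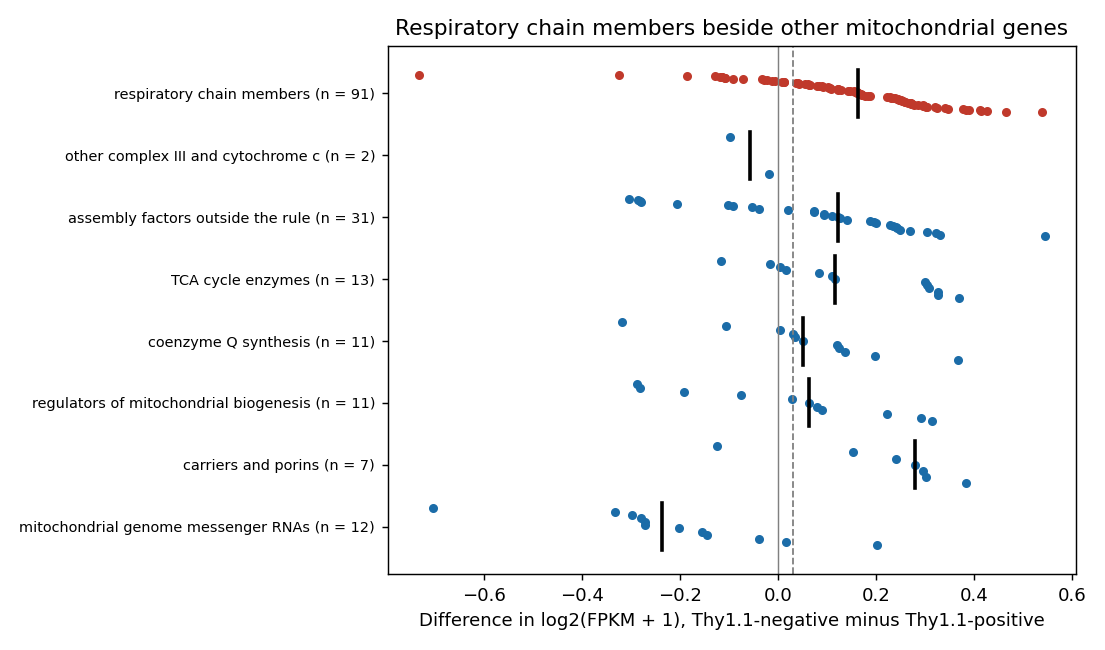
Difference in log2(FPKM + 1), Thy1.1-negative minus Thy1.1-positive (x axis), for the respiratory chain genes (red) and the lists of other mitochondrial genes (blue) on the y axis. Each point is a gene past the minimum level, black bars are list medians and the dashed line is the median of all genes. The mitochondrial genome list has the lowest median, -0.24 (0.02 on the upper-quartile scale), and carriers and porins the highest, 0.28.

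Most of a list of proliferation genes were also higher in the Thy1.1-negative library, several of them by far more than the respiratory chain genes. Of 14, 13 lay above 0 and 8 were at least 2-fold higher, where 3.08% of all genes were 2-fold apart either way. The list had a median of 1.55 and summed levels of 380 FPKM (Thy1.1-positive) and 566 FPKM (Thy1.1-negative). Mcm2 and Pcna had ratios of only 1.04 and 1.12. Mki67 stood at 1.49 and 13.5 FPKM, and Tk1 went the other way at 28.6 and 24.6 FPKM. Their part in the respiratory chain values was not tested. Markers of other cells were low. B cell markers summed to 6.55 and 8.77 FPKM over 6 genes, dendritic cell markers to 3.25 and 3.16 over 5, natural killer cell markers to 3.81 and 4.54 over 4, CD8 markers to 4.49 and 4.78 over 2 and erythroid markers to 5.99 and 2.27 over 6. Myeloid markers summed to 50.9 and 68.4 over 6, mostly from Cst3, with Itgam at 0.272 and 4.17 FPKM and with Lyz2, Csf1r, Adgre1 and Cd14 under 0.3 FPKM. Plasma cell markers summed to 170 and 160 over 4, mostly from Xbp1, which other cells express too, with Jchain at 0.779 and 0.440 FPKM. The other plasma cell markers went the opposite way, Prdm1 at 6.62 and 15.0 FPKM and Sdc1 at 2.06 and 3.51 FPKM, and the list median was 0.56. Among natural killer cell markers Klrb1c stood at 0.445 and 2.08 FPKM and Eomes at 3.00 and 2.22 FPKM. Ncr1 was listed at 0 in the Thy1.1-negative library. The part of these cells in the respiratory chain values was not tested.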

How the data were processed

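Per the labels' protocols, 3 µg of total RNA went into each NEBNext Ultra library. The authors deposited 1 table of FPKM values with a column for each group, whose letters P and N were taken to mean positive and negative for Thy1.1. Tools listed in the submitters' processing notes are Bowtie2 2.2.3, TopHat2 2.0.12 and HTSeq 0.6.1, with build mm9. The sources used here do not say which step each served, nor its settings or the annotation release. Symbols, gene types and lengths came from GENCODE M21 on another build, and 96.8% of IDs had a symbol. Coordinates printed are those of RefSeq promoter windows on GRCm38.p6.

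Whole reads were recovered to get counting intervals. Ratios of the 23442 genes above 0 in both libraries were whole-number ratios times 1 common factor within 2e-12, and implied gene lengths were whole for 99.97% of genes above 0, within 1e-06 bases per multiple. A gene's reads were the multiple that met the mean annotated transcript length within 1 base, or else the smallest within 2-fold of it, or else the nearest. The first held for 54.3% of genes with a mean of 1 FPKM or more, so for the rest reads, gene lengths and interval widths are less certain. Recovered reads summed to 96.8% of both library totals. The steps were run on simulated libraries whose gene lengths were the annotated means, so the first rule could always be met there. That check did not cover the rules used for the other genes. No count model was run, since there is 1 library a side.

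Genes reaching a mean of 1 FPKM were compared on log2(FPKM + 1), also with pseudocounts of 0.1 and 5, other filters, fold rules and 4 rescalings. Genes named are the catalytic core, the extremes of difference and level in each complex, genes past 1.5-fold, tissue-restricted isoforms with their partner, c ring genes, the inhibitor and the extremes of each list. Of the genes so named, 1 is not reported here. Further members, the promoters printed and the motifs were chosen after values were seen. The members and lists were chosen with earlier results of these data known. Reads of near-identical copies may be split: 11 pseudogene rows with matching symbols were at most 0.551 and 0.692 FPKM. Copies under other symbols were not searched, so these rows cannot show how many reads were split. Python 3.11.15, pandas 2.3.3 and SciPy 1.17.1 were used.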

Additional observations from a re-analysis of the deposited data

How the results depend on the processing

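With 1 library per population, replicate error is unknown and counting intervals are the only error given. Rescaling by the upper quartile of values above 0 moved the median of all genes by 0.23, to 0.26. It moved the median of the 91 genes to 0.42 and those of complexes I to V to 0.38, 0.42, 0.50, 0.47 and 0.42. The distance of the members to the median gene was 0.16 there and 0.13 with the deposited values. Atp5d then stood at 0.14, and of the 16 genes below 0 as deposited, all but Atp5s and Cox4i2 lay above 0. Under the other 3 rescalings (same sum, centred on the median gene, sum without the 100 highest genes) 72 to 74 genes lay above 0. The medians of all members and of each complex kept their sign under every pseudocount, filter and rescaling tried and without assembly factors and isoforms. With the pseudocount of 1 none passed 2-fold, and with 0.1 Cox4i2 did, 1 gene, as its plain ratio does. A 1.5-fold rule called 1 gene and a rule of 0.322 on the log2 scale 13. Over all genes the 2-fold rule called 395, against 695 with a pseudocount of 0.1, 91 with 5 and 167 at a mean of at least 5 FPKM, and the smaller rules called 1238 and 3314. Counting intervals lay above 1 in 50 genes as deposited, 40 without the 100 highest genes in the sum and 75 by the upper quartile. No paired analysis was possible because each population has 1 library. The backgrounds by level and length, the levels per principal transcript and a minimum of 300 reads, which gave a median of 0.17, were chosen after seeing the data.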
